A study of Mus musculus with 12 samples.

Results

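The 50 genes described here encode the RNA polymerase I machinery, the small nucleolar ribonucleoproteins (snoRNPs) and the assembly factors that build the small and large ribosomal subunits. They were chosen by gene symbol from a list made for ribosome biogenesis, with earlier results of these data known. All 50 were found once among the 24046 symbols of the count tables. All 50 were also among the 12242 genes with enough counts to be tested. By role, 6 serve RNA polymerase I (Pol I), 8 belong to snoRNPs, 15 act on the small subunit, 18 on the large subunit, and 3 are abundant nucleolar proteins of several steps.

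The libraries come from mouse follicular (FO) B cells, the recirculating mature B cells of the spleen, which were sorted and then stimulated with anti-IgM, which engages the antigen receptor on their surface. The groups were Jmjd1c knockout (KO) cells after 2 h of anti-IgM, KO cells at 0 h, Jmjd1c wild-type (WT) cells after 2 h of anti-IgM, and WT cells at 0 h, with 3 libraries each. The library names give 6 animals, 3 of each genotype, and each animal gave 1 library at each time, so the 3 replicates of a group are separate animals. JMJD1C is a histone demethylase of the JmjC family. The sources used here do not give how the knockout was made, or the animals' age and sex. None of the groups used here is a culture kept for 2 h without anti-IgM, so the antibody and the time in culture cannot be told apart.

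Ribosomes are built in the nucleolus. Pol I transcribes the ribosomal DNA into a long precursor RNA, snoRNPs modify it and guide its first cuts, and separate sets of GTPases, helicases and scaffold proteins then fold and trim the parts that become the small and the large subunit. Resting B cells make few new ribosomes, and antigen receptor signalling raises the transcription factor MYC, which is known to activate genes of this pathway.

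The 12 libraries held 5666013 to 14153396 counts. The lowest count of any member in any library was 122, in KO 2 h replicate 1. Rn45s, the row of the ribosomal RNA precursor, took 52.3% of the counts in KO 2 h replicate 1, 24.8% in WT 2 h replicate 1, 12.9% to 15.5% in the 4 libraries of replicate 2 and 0.418% to 1.09% in the other 6. Poly(A)-selected libraries do not measure how much precursor Pol I makes, so these shares describe the libraries only. Levels below are CPM, the counts scaled to a common library size, computed on library sizes scaled by edgeR's TMM method. KO 2 h replicate 1 also had the highest summed level of 12 proliferation markers, at 1079 CPM against 50.8 to 301 CPM in the other 11 libraries. The 10 follicular B cell markers in the files were present in every library. Summed over the list they stood at 3248 to 5632 CPM in KO at 2 h, 6058 to 6793 CPM in KO at 0 h, 3863 to 5184 CPM in WT at 2 h and 5384 to 6487 CPM in WT at 0 h. In edgeR's test 6 of the 10 were lower at 2 h in KO, and 3 were lower and 1 higher in WT. Of all genes tested, 13% were called lower and 14.1% higher in KO, and 9.06% lower and 10.7% higher in WT. The summed T and NK cell markers were lower at 2 h without overlap, at 96.8 to 151 CPM in KO at 2 h, 213 to 233 CPM in KO at 0 h, 109 to 151 CPM in WT at 2 h and 186 to 239 CPM in WT at 0 h, with Cd3e between 3.05 and 12.3 CPM in all libraries. Most of that sum was Cd2, at 34.3 to 134 CPM, and Cd247, at 16.9 to 58.2 CPM. Of the 12 tested, 11 had a negative log2 fold change in KO and 10 in WT. EdgeR's test called 1 lower in KO and 1 in WT, and 0 higher, beside the shares of all genes tested just given. The summed myeloid markers stood at 429, 697 and 958 CPM in KO at 2 h and 489 to 559 CPM in KO at 0 h, and were higher at 2 h without overlap in WT, at 510 to 903 CPM at 2 h and 392.5 to 433 CPM at 0 h. Of that list Cybb, which B cells also express, held 327 to 923 CPM and Lyz2 4.397 to 21.7 CPM. Marker by marker, 8 of the 9 tested had a negative log2 fold change in WT and 1 a positive one. In KO 4 were negative and 5 positive, and 0 were called in either genotype. The part of other cell types in the responses was not tested. Jmjd1c itself was lower in all KO libraries than in any WT library at both times: 208, 213 and 199 CPM in KO and 322, 295 and 269.7 CPM in WT at 2 h, and 231, 236 and 197 CPM in KO and 360.0, 326 and 289 CPM in WT at 0 h. The log2 fold change, KO over WT, was -0.52 ± 0.13 (SE) at 2 h and -0.56 ± 0.13 at 0 h, with an unadjusted p of 0.00178 at 2 h and 0.000997 at 0 h. Neither passed Benjamini-Hochberg adjustment over all genes in edgeR's quasi-likelihood test. A count over the whole gene does not show which exons the knockout removed.

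Nearly the whole set rose within 2 h of anti-IgM in both genotypes. In KO, 48 of the 50 genes were higher at 2 h and 0 were lower by edgeR's quasi-likelihood test at a Benjamini-Hochberg adjusted p under 0.05, where 14.1% of all genes tested were called higher and 13% lower. In WT, 47 were higher and 0 lower, where 10.7% of all genes tested were called higher and 9.06% lower. At an unadjusted p under 0.05, 49 were higher and 0 lower in KO, beside 20.8% and 18.8% of all genes tested, and 50 were higher and 0 lower in WT, beside 16.6% and 15.7%. DESeq2 called 48 higher in KO, 50 higher in WT and 0 lower in both. The shares of all genes above are edgeR's, and none was taken for DESeq2. The median log2 fold change of the members, 2 h over 0 h, was 1.22 in KO and 1.14 in WT, beside 0.04 in KO and 0.01 in WT over all genes tested. The members called in both genotypes numbered 47, where 9.8% of all genes tested were called higher in both. A rise both called and over 2-fold was seen for 35 members in KO (5.49% of all genes tested) and 37 in WT (4.55%). In a bulk library, more RNA per cell and more cells of a type cannot be told apart.

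The members together had a higher TMM-scaled level, and a larger share of the counts other than Rn45s, at 2 h in every animal. Their summed level was 8979.6, 13969.9 and 11194 CPM in KO at 2 h and 5103, 4869 and 4237 CPM in KO at 0 h. In WT it was 8368, 12828 and 11564 CPM at 2 h and 4787, 5154 and 4111 CPM at 0 h. No 2 h library of either genotype reached down to the level of any 0 h library. As a share of all counts other than Rn45s, the 50 genes made up 0.982% to 1.53% in KO at 2 h, 0.513% to 0.587% in KO at 0 h, 0.978% to 1.43% in WT at 2 h and 0.491% to 0.604% in WT at 0 h.

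Gene by gene, the 3 libraries at 2 h lay above all 3 at 0 h for 45 of the 50 members in KO, where 17.9% of all genes tested did so, and for 50 of 50 in WT, where 21.3% did. Compared within each animal, 47 members were higher at 2 h in all 6 animals, a pattern of 18.7% of all genes tested. The 3 exceptions, Heatr1, Ddx10 and Rrn3, were each below their 0 h level in 1 animal only, KO replicate 1, with log2 ratios of -0.26, -0.28 and -0.01. A log2 ratio over 1 in all 6 animals was seen for 7 members (1.03% of all genes tested): Nop58, Nhp2, Rrp9, Nolc1, Gnl3, Nop16 and Ppan, of which 4 are snoRNP proteins and 3 large subunit factors.

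**Figure D1:**
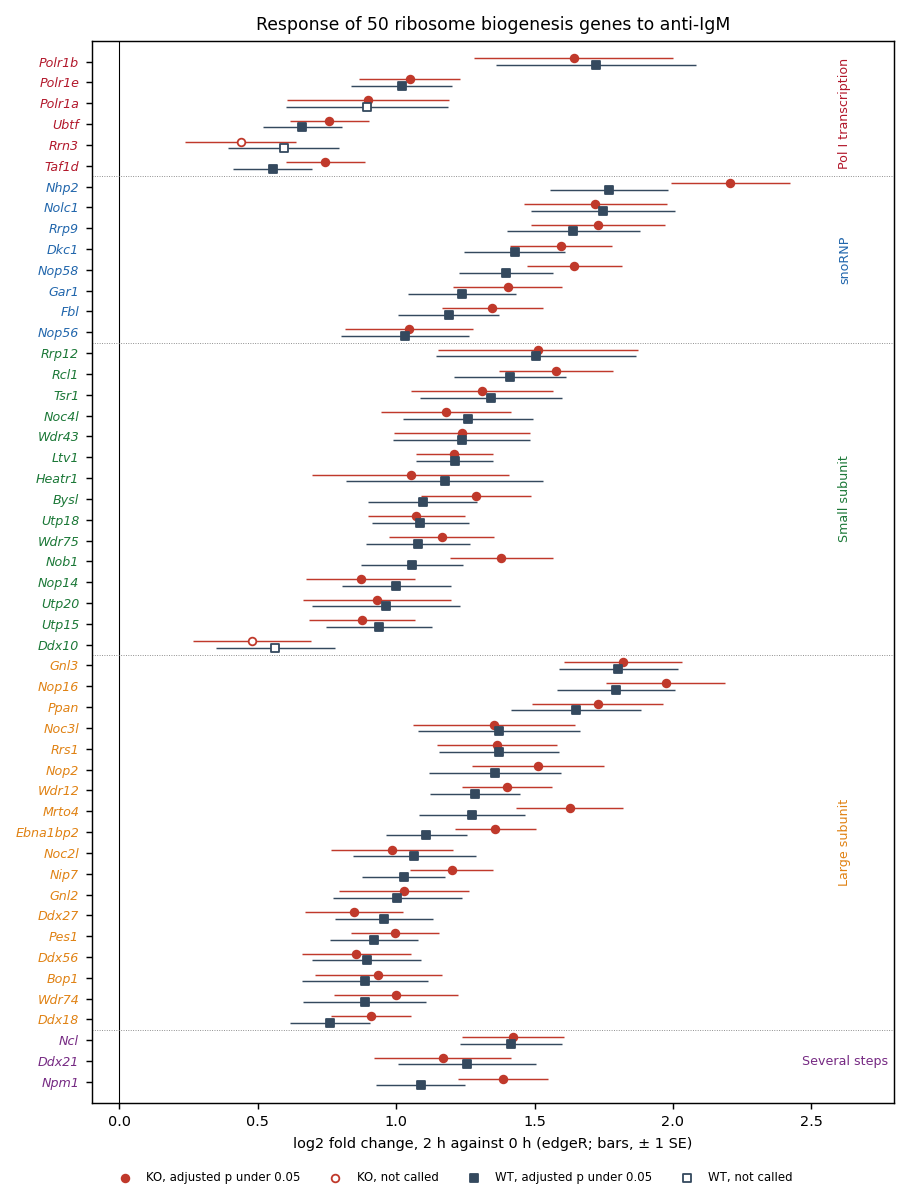
Log2 fold change of each of the 50 members at 2 h against 0 h of anti-IgM, in KO (red circles) and WT (dark squares), with bars of 1 SE from edgeR; open symbols did not reach an adjusted p under 0.05. All values lie above 0, from 0.44 (Rrn3) to 2.21 (Nhp2) in KO and from 0.55 (Taf1d) to 1.80 (Gnl3) in WT.

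By role, the median rise was smallest for the Pol I genes and largest for the snoRNP genes. The median log2 fold change was 0.83 in KO and 0.78 in WT for the 6 Pol I genes, 1.62 in KO and 1.41 in WT for the 8 snoRNP genes, 1.18 in KO and 1.10 in WT for the 15 small subunit genes, and 1.28 in KO and 1.09 in WT for the 18 large subunit genes. The 3 proteins of several steps had medians of 1.39 in KO and 1.26 in WT. Within single animals the order of the extremes was the same 6 times over: the Pol I genes had the lowest median log2 ratio of the 5 roles and the snoRNP genes the highest. The Pol I medians were 0.57, 1.09 and 0.86 in the KO animals and 0.35, 0.87 and 0.95 in the WT animals. The snoRNP medians were 1.28, 1.80 and 1.69 in the KO animals and 0.97, 1.57 and 1.63 in the WT animals. The genes of a role share the same libraries, so this order is a description of the 6 animals and no test was made of it.

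**Figure D2:**
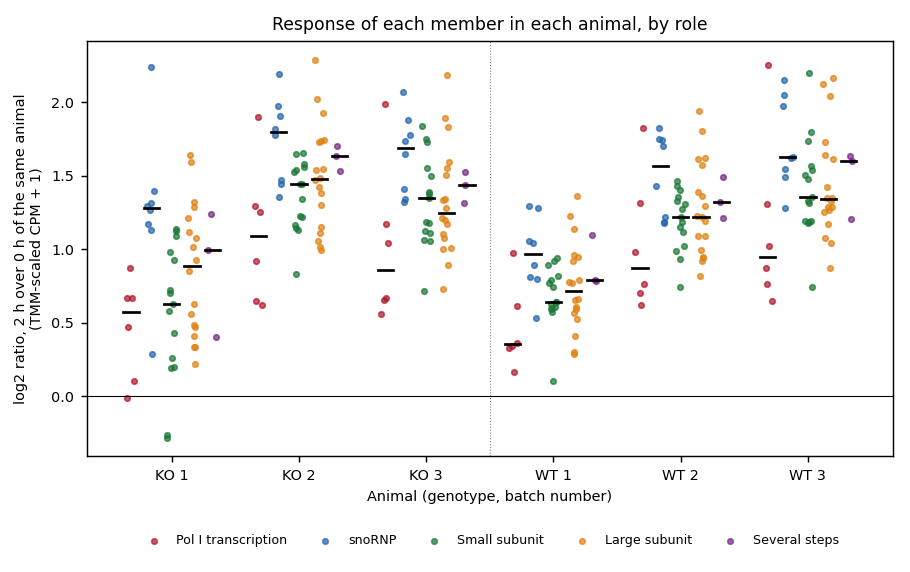
Log2 ratio of CPM + 1 at 2 h over 0 h for each member (points, coloured by role) within each of the 6 animals, KO left and WT right, with a black bar at each role's median. In all 6 animals the Pol I bar is the lowest and the snoRNP bar the highest, and the 3 points below 0 are all in KO replicate 1.

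The replicate number, which the labels also give as the batch, moved with the size of the response in both genotypes. The median log2 ratio over the 50 members was 0.79 in KO replicate 1, 1.47 in KO replicate 2 and 1.34 in KO replicate 3. In WT it was 0.77 in replicate 1, 1.22 in replicate 2 and 1.35 in replicate 3. The smallest median of each genotype was thus that of replicate 1, the batch whose 2 h libraries had the highest Rn45s shares. The part of that share in the result was not tested. Without both 2 h libraries of replicate 1, all 50 members were called higher in each genotype. The share of all genes called in that fit was not taken, so this count has no background beside it.

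Among the Pol I genes the rise was largest for Polr1b and did not pass the test for Rrn3. Polr1b (chr2:129100970-129128060, positions in mm10), the second-largest subunit, stood at 108, 305 and 202 CPM at 2 h and 67.7, 80.9 and 50.0 CPM at 0 h in KO, and at 150.5, 289 and 239 CPM at 2 h and 75.9, 80.6 and 49.3 CPM at 0 h in WT. Its log2 fold change was 1.64 ± 0.36 in KO (edgeR adjusted p = 0.00636) and 1.72 ± 0.36 in WT (adjusted p = 0.00634), the largest of the Pol I genes in both genotypes. Polr1a (chr6:71909053-71979435), the largest subunit, stood at 98.8, 238 and 157 CPM at 2 h and 91.7, 98.9 and 75.8 CPM at 0 h in KO, where the lowest library at 2 h was within the range at 0 h. In WT it stood at 132, 230.0 and 190.3 CPM at 2 h and 105, 116 and 76.1 CPM at 0 h, with no overlap between the times. The log2 fold change of Polr1a was 0.90 ± 0.29 in KO (edgeR adjusted p = 0.0405) and 0.90 ± 0.29 in WT (adjusted p = 0.0515), so the same size of change fell on either side of the threshold. With the animal as a block the Polr1a values were 0.82 in KO (edgeR adjusted p = 0.0514) and 0.88 in WT (adjusted p = 0.0487). Leaving out 1 library at a time moved its adjusted p between 0.00527 and 0.174 in KO and between 0.0133 and 0.212 in WT; the highest KO value came without KO 2 h replicate 2, with a log2 fold change of 0.54.

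Polr1e, the subunit known in yeast as A49, which aids initiation and elongation, was measured at 41.3, 69.5 and 58.9 CPM at 2 h and 29.5, 27.7 and 25.6 CPM at 0 h in KO. In WT it was at 44.2, 62.2 and 59.4 CPM at 2 h and 28.5, 24.4 and 28.7 CPM at 0 h. Every 2 h library was above every 0 h library, and the log2 fold change was 1.05 ± 0.18 in KO (edgeR adjusted p = 0.00173) and 1.02 ± 0.18 in WT (adjusted p = 0.00279). Ubtf, which binds along the ribosomal DNA and keeps it open, was at 202, 249 and 230.0 CPM at 2 h and 127, 131 and 146 CPM at 0 h in KO, and at 172, 236 and 242 CPM at 2 h and 135, 144 and 132 CPM at 0 h in WT. The times did not overlap in either genotype, and the log2 fold change was 0.76 ± 0.14 in KO (edgeR adjusted p = 0.00274) and 0.66 ± 0.14 in WT (adjusted p = 0.00746). Taf1d, a subunit of the SL1 factor that selects the Pol I promoter, changed by 0.74 ± 0.14 in KO (edgeR adjusted p = 0.00319) and 0.55 ± 0.14 in WT (adjusted p = 0.0187), the smallest rise called in WT. Rrn3 (chr16:13780699-13814841) joins Pol I to the promoter and is a step that growth signals act on. It stood at 74.1, 131 and 102 CPM at 2 h and 74.6, 84.7 and 68.6 CPM at 0 h in KO, where the times overlapped. In WT it stood at 83.6, 129 and 116 CPM at 2 h and 74.4, 75.9 and 67.8 CPM at 0 h, without overlap. Its log2 fold change of 0.44 ± 0.20 in KO (edgeR adjusted p = 0.127) and 0.59 ± 0.20 in WT (adjusted p = 0.0585) did not pass the test in either genotype. Without KO 2 h replicate 1 it did, at 0.61 in KO (edgeR adjusted p = 0.0196) and 0.59 in WT (adjusted p = 0.0159). Over all single libraries left out the edgeR adjusted p of Rrn3 ran up to 0.429 in KO, without KO 2 h replicate 2 and with a log2 fold change of 0.22, and up to 0.238 in WT.

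All 8 snoRNP genes rose in both genotypes. The H/ACA snoRNPs, which convert uridines of ribosomal RNA to pseudouridine, are represented by the enzyme Dkc1 (dyskerin) and its partners Nhp2 and Gar1. Nhp2 (chr11:51619773-51623718) had 171, 171 and 128 CPM at 2 h and 35.3, 36.6 and 29.6 CPM at 0 h in KO, the largest rise of all 50 members there. In WT Nhp2 had 84.6, 141 and 123 CPM at 2 h and 34.2, 41.4 and 26.9 CPM at 0 h. Both sets of 2 h libraries stood far above their 0 h libraries, and the log2 fold change was 2.21 ± 0.22 in KO (edgeR adjusted p = 8.31e-05) and 1.77 ± 0.21 in WT (adjusted p = 0.000355). Dkc1, on the X chromosome, had 185, 229 and 219 CPM at 2 h and 74.8, 66.0 and 69.0 CPM at 0 h in KO, and 129, 226 and 209.9 CPM at 2 h and 73.9, 68.7 and 67.4 CPM at 0 h in WT. Its 2 h libraries were above the 0 h ones without overlap, and it changed by 1.60 ± 0.18 in KO (edgeR adjusted p = 0.000179) and 1.43 ± 0.18 in WT (adjusted p = 0.0005). Gar1 had log2 fold changes of 1.40 in KO and 1.24 in WT.

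The box C/D snoRNPs, which add methyl groups to the ribose of ribosomal RNA, are represented by the methyltransferase Fbl (fibrillarin) and the paired core proteins Nop56 and Nop58. Nop58 had 279.9, 398 and 335 CPM at 2 h and 116, 112 and 96.8 CPM at 0 h in KO, and 215, 303 and 303 CPM at 2 h and 103, 112 and 97.4 CPM at 0 h in WT. No library of one time reached the range of the other, and the log2 fold change was 1.64 ± 0.17 in KO (edgeR adjusted p = 0.000112) and 1.40 ± 0.17 in WT (adjusted p = 0.000379). Fbl had log2 fold changes of 1.35 in KO and 1.19 in WT, and Nop56 the smallest of the group, 1.05 in KO and 1.03 in WT. Rrp9, which binds the U3 snoRNA needed for the first cuts of the precursor, had log2 fold changes of 1.73 in KO and 1.64 in WT. Nolc1 (Nopp140), a phosphoprotein that carries snoRNPs between the Cajal body and the nucleolus, had 1.72 in KO and 1.75 in WT. Summed over the 8 genes, the snoRNP level was 1431, 2102 and 1640.3 CPM in KO at 2 h and 642, 623 and 519 CPM in KO at 0 h. In WT the sum was 1195, 1901 and 1675 CPM at 2 h and 616, 657 and 515 CPM at 0 h, so the lowest 2 h sum was well above the highest 0 h sum in each genotype.

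Of the 15 small subunit genes, 14 rose in KO and the same 14 in WT, with Ddx10 the exception in both. Ltv1, a factor of late small subunit maturation, had the smallest p of all members in WT. It stood at 98.5, 118 and 103 CPM at 2 h and 49.5, 50.0 and 39.2 CPM at 0 h in KO and at 86.3, 104 and 107 CPM at 2 h and 44.5, 46.2 and 37.7 CPM at 0 h in WT, with narrow spreads at each time. The log2 fold change of Ltv1 was 1.21 ± 0.14 in KO (edgeR adjusted p = 0.000179) and 1.21 ± 0.14 in WT (adjusted p = 0.000269). Rcl1, needed in yeast for early cuts of the precursor, stood at 82.9, 121 and 106 CPM at 2 h and 37.6, 38.0 and 29.0 CPM at 0 h in KO and at 68.9, 111 and 104 CPM at 2 h and 35.9, 40.4 and 30.4 CPM at 0 h in WT. The 2 h libraries were all above the 0 h libraries, with a log2 fold change of 1.58 ± 0.20 in KO (edgeR adjusted p = 0.000349) and 1.41 ± 0.20 in WT (adjusted p = 0.000876). Utp18, a WD-repeat protein of the complex that forms on the nascent precursor, stood at 115, 164 and 148 CPM at 2 h and 69.5, 69.6 and 64.5 CPM at 0 h in KO and at 95.4, 149.7 and 142 CPM at 2 h and 63.8, 63.7 and 54.7 CPM at 0 h in WT. It too did not overlap between times, and it changed by 1.07 ± 0.17 in KO (edgeR adjusted p = 0.00121) and 1.09 ± 0.17 in WT (adjusted p = 0.00156).

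Other small subunit factors, early and late, rose in both genotypes. Wdr43, Wdr75 and Utp15 belong, with Heatr1, to the subcomplex that binds the start of the precursor; the log2 fold change was 1.24 in KO and 1.24 in WT for Wdr43, 1.16 in KO and 1.08 in WT for Wdr75, and 0.88 in KO and 0.94 in WT for Utp15. Nop14 had 0.87 in KO and 1.0 in WT, and its binding partner Noc4l had 1.18 in KO and 1.26 in WT. Rrp12, a large repeat protein needed in yeast for export of both subunits, had 1.51 in KO and 1.5 in WT, the largest WT value of the small subunit genes, with an SE of 0.36 there. Tsr1, a GTPase-like factor of late maturation, had 1.31 in KO and 1.34 in WT. Bysl (bystin), which travels with the particle to the cytoplasm, had 1.29 in KO and 1.10 in WT. Nob1, the nuclease that makes the final cut of 18S rRNA, had 1.38 in KO and 1.06 in WT.

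The remaining 3 small subunit genes were those with overlapping times in KO. Heatr1 (chr13:12395375-12438893) stood at 163, 536 and 407 CPM at 2 h and 196, 196 and 143 CPM at 0 h in KO: replicate 1 at 2 h lay within the range at 0 h, and the other 2 h libraries were far above it. In WT Heatr1 stood at 296, 518 and 457 CPM at 2 h and 195, 213 and 154 CPM at 0 h, without overlap. The log2 fold change of Heatr1 was 1.05 ± 0.36 in KO (edgeR adjusted p = 0.0471) and 1.17 ± 0.36 in WT (adjusted p = 0.0382). With the animal as a block it was 0.92 in KO (edgeR adjusted p = 0.102) and 1.15 in WT (adjusted p = 0.0587), so neither call held. Without KO 2 h replicate 1 the log2 fold change of Heatr1 in KO was 1.40, and without KO 2 h replicate 2 it was 0.68, with edgeR adjusted p of 0.00125 and 0.184, the lowest and highest over single libraries left out.

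Utp20, a very large scaffold protein, stood at 109, 250.4 and 180.2 CPM at 2 h and 95.4, 111 and 78.6 CPM at 0 h in KO and at 159, 249 and 211 CPM at 2 h and 104, 122 and 91.7 CPM at 0 h in WT. Its lowest KO library at 2 h was just under the highest at 0 h, and the log2 fold change was 0.93 ± 0.27 in KO (edgeR adjusted p = 0.0237) and 0.96 ± 0.27 in WT (adjusted p = 0.0260). Leaving out KO 2 h replicate 2 gave 0.62 in KO (edgeR adjusted p = 0.103, the highest over single libraries left out). Ddx10 (chr9:53098454-53248170), a DEAD-box helicase, stood at 63.3, 116 and 101 CPM at 2 h and 77.1, 65.0 and 60.9 CPM at 0 h in KO and at 70.2, 110.4 and 103 CPM at 2 h and 65.4, 65.5 and 61.2 CPM at 0 h in WT. KO replicate 1 was lower at 2 h than at 0 h, while in WT the times did not overlap. Its log2 fold change of 0.48 ± 0.21 in KO (edgeR adjusted p = 0.119) and 0.56 ± 0.21 in WT (adjusted p = 0.0883) did not pass the test. Without KO 2 h replicate 1 it passed in both, at 0.68 in KO (edgeR adjusted p = 0.0111) and 0.56 in WT (adjusted p = 0.0194). Over all single libraries left out the edgeR adjusted p of Ddx10 reached 0.359 in KO, without KO 2 h replicate 2 and with a log2 fold change of 0.29, and 0.306 in WT.

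All 18 large subunit genes rose in both genotypes. Gnl3 (nucleostemin, chr14:31012433-31019131), a nucleolar GTPase, stood at 228, 355 and 307 CPM at 2 h and 92.9, 92.8 and 66.8 CPM at 0 h in KO and at 208, 303 and 292 CPM at 2 h and 80.3, 85.8 and 64.3 CPM at 0 h in WT. No library at 2 h reached down to one at 0 h. Gnl3 had the largest rise of all members in WT, with a log2 fold change of 1.82 ± 0.21 in KO (edgeR adjusted p = 0.000195) and 1.80 ± 0.21 in WT (adjusted p = 0.000317). Nop16 (chr13:54584191-54590097), a small nucleolar protein and a known MYC target, stood at 95.1, 127 and 90.1 CPM at 2 h and 30.8, 25.1 and 23.5 CPM at 0 h in KO and at 68.6, 116 and 100.4 CPM at 2 h and 30.7, 29.3 and 22.3 CPM at 0 h in WT. Its 2 h libraries were all far above the 0 h libraries, and the log2 fold change was 1.97 ± 0.22 in KO (edgeR adjusted p = 0.000133) and 1.79 ± 0.21 in WT (adjusted p = 0.000333). Wdr12 forms the PeBoW complex with Pes1 and Bop1, which is needed to process the precursor of 28S and 5.8S rRNA. Wdr12 stood at 58.9, 73.7 and 65.9 CPM at 2 h and 28.6, 21.4 and 25.3 CPM at 0 h in KO and at 43.1, 65.6 and 56.5 CPM at 2 h and 24.5, 21.4 and 21.8 CPM at 0 h in WT, and changed by 1.40 ± 0.16 in KO (edgeR adjusted p = 0.000192) and 1.28 ± 0.16 in WT (adjusted p = 0.000482). Its partners changed less, Pes1 with log2 fold changes of 1.0 in KO and 0.92 in WT and Bop1 with 0.94 in KO and 0.89 in WT. Differences between members were not tested.

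Among the other large subunit genes, the log2 fold change was 1.73 in KO and 1.65 in WT for Ppan, a factor of precursor processing, and 1.63 in KO and 1.27 in WT for Mrto4, which holds the place of the stalk protein P0 in the nucleolar particle. The annotation names 2 pseudogenes of Mrto4, so its counts are uncertain to the extent that reads were shared with them. Only pseudogenes that carry a member's name were looked for, so copies under other names were not searched for any member. Nop2, a cytosine methyltransferase of 28S rRNA, had 1.51 in KO and 1.36 in WT. Rrs1, which brings the 5S particle into the large subunit, had 1.36 in KO and 1.37 in WT. Noc2l and Noc3l, relatives of a yeast pair that escorts the particle out of the nucleolus, had 0.99 in KO and 1.07 in WT for Noc2l, and 1.35 in KO and 1.37 in WT for Noc3l. Ebna1bp2 had 1.36 in KO and 1.11 in WT, and Nip7, an RNA-binding assembly factor, had 1.20 in KO and 1.03 in WT. The GTPase Gnl2 had 1.03 in KO and 1.0 in WT, and Wdr74 had 1.0 in KO and 0.89 in WT. The 3 DEAD-box helicases were among the lower WT values: Ddx18 had 0.91 in KO and 0.76 in WT, Ddx27 had 0.85 in KO and 0.96 in WT and Ddx56 had 0.86 in KO and 0.89 in WT.

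The 3 proteins of several steps had the highest levels per kilobase of coding sequence at 0 h, given further on. Ncl (nucleolin), which binds the nascent precursor and ribosomal chromatin, stood at 1733, 2521 and 2065 CPM at 2 h and 869.9, 774 and 714 CPM at 0 h in KO and at 1583, 2351 and 2149 CPM at 2 h and 741, 835 and 707 CPM at 0 h in WT. Every 2 h library was far above every 0 h library, and the log2 fold change was 1.42 ± 0.18 in KO (edgeR adjusted p = 0.000355) and 1.41 ± 0.18 in WT (adjusted p = 0.000537). Npm1 (nucleophosmin, chr11:33152498-33164142), a histone and ribosomal protein chaperone, stood at 826, 785 and 780.1 CPM at 2 h and 349, 253 and 313 CPM at 0 h in KO and at 482, 684 and 671 CPM at 2 h and 279, 295 and 290.3 CPM at 0 h in WT. It did not overlap between times and changed by 1.39 ± 0.16 in KO (edgeR adjusted p = 0.000192) and 1.09 ± 0.16 in WT (adjusted p = 0.000979). Ddx21, a helicase that acts on both ribosomal DNA transcription and precursor processing, stood at 423, 820.2 and 630.5 CPM at 2 h and 319, 283 and 233 CPM at 0 h in KO and at 507, 774 and 681 CPM at 2 h and 294, 309 and 219 CPM at 0 h in WT. KO replicate 1 was the lowest of the 6 libraries at 2 h, though still above all 0 h libraries. The log2 fold change of Ddx21 was 1.17 ± 0.25 in KO (edgeR adjusted p = 0.00545) and 1.26 ± 0.25 in WT (adjusted p = 0.00487).

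**Figure D3:**
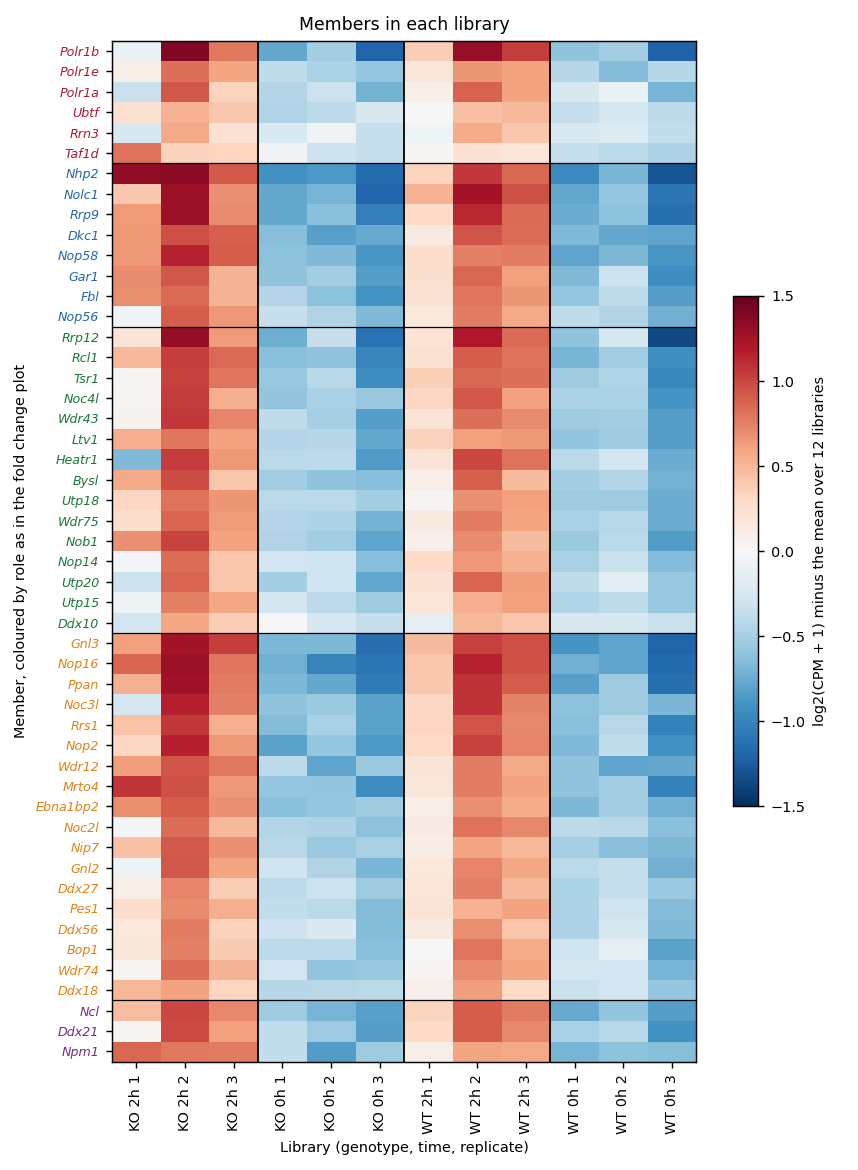
Each member (one line each, ordered by role and then by WT fold change) in each of the 12 libraries, as log2(CPM + 1) minus the member's mean over all libraries. The 2 h columns are mostly red and the 0 h columns blue in both genotypes, and the palest 2 h columns are the replicate 1 libraries of KO and WT.

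Levels were compared between genes only per kilobase of coding sequence. At 0 h Ncl led with 371 CPM per kb in KO and 359 in WT, ahead of Npm1 with 348 in KO and 329 in WT and Ddx21 with 109 in KO and 107 in WT. Utp20 was the lowest, at 11.3 CPM per kb in KO and 12.7 in WT. At 2 h Ncl reached 993 CPM per kb in KO and 956 in WT, and Utp20 21.5 in KO and 24.7 in WT. Reads in UTRs are part of these counts, so the values are a ranking aid and overstate genes with long UTRs.

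The response of KO replicate 1 moved with gene length across the members. Over the 50 genes, Pearson's r between the log2 of coding length and the log2 ratio of 2 h over 0 h was -0.70 in KO replicate 1 (Spearman's rho -0.67), -0.29 in KO replicate 2 and -0.15 in KO replicate 3. It was -0.28, -0.19 and -0.08 in WT replicates 1, 2 and 3. Over the 11018 genes tested with a protein-coding transcript, Pearson's r was -0.11 and Spearman's rho -0.19 in KO replicate 1. The 50 points share 1 pair of libraries in each case, and no test was made. Heatr1 and Utp20, with 6.43 and 8.37 kb of coding sequence, are the longest members, and Nhp2, with 0.459 kb, is the shortest. The 5 members whose times overlapped in KO were Polr1a, Rrn3, Utp20, Heatr1 and Ddx10, and in each the low 2 h library was KO replicate 1. The part of length in these values was not tested.

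**Figure D4:**
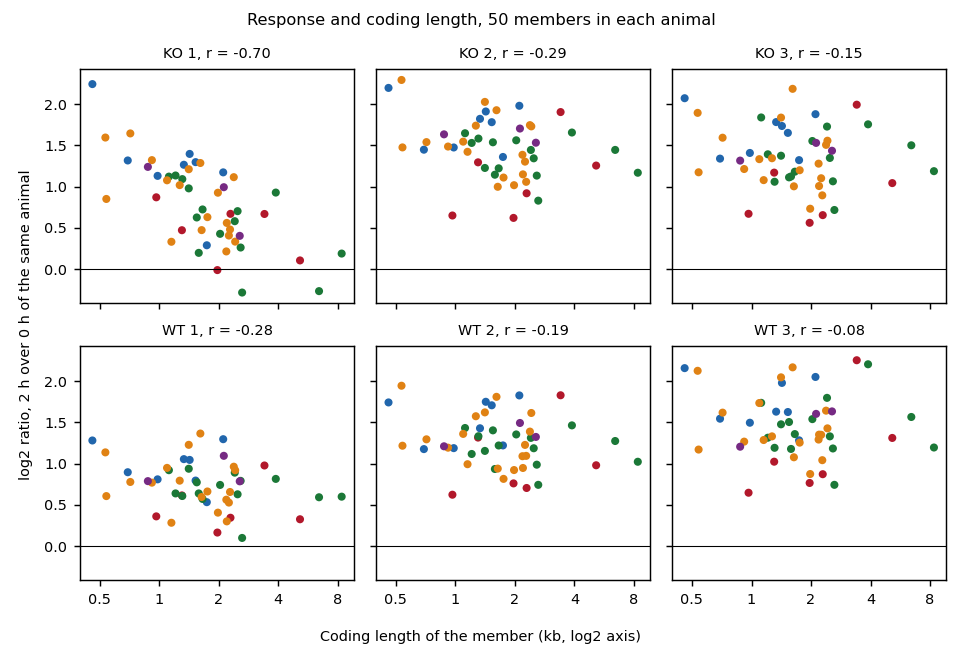
Log2 ratio of 2 h over 0 h against coding length (log2 axis, kb) for the 50 members in each animal, with points coloured by role (red, Pol I; blue, snoRNP; green, small subunit; orange, large subunit; purple, several steps) and Pearson's r in each panel title. The points fall with length most closely in KO replicate 1 (r = -0.70); in the other 5 animals r lies between -0.29 and -0.08.

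No member passed the test between genotypes at either time. At 2 h, 0 of 50 were called in KO against WT by edgeR at an adjusted p under 0.05, as was 0% of all genes tested. At an unadjusted p under 0.05, 2 members were higher in KO at 2 h, Taf1d and Npm1, and 0 lower, where 3.71% of all genes tested were higher and 1.52% lower. At 0 h, 0 were called and 0 had an unadjusted p under 0.05, where 0.408% of all genes tested were higher and 0.335% lower. DESeq2 also called 0 members at either time. The log2 differences, KO over WT, ran from -0.20 to 0.43 at 2 h and from -0.16 to 0.18 at 0 h. Libraries without overlap, KO above WT, were seen at 2 h for Taf1d, Ebna1bp2 and Npm1, 3 of 50 members where 4.62% of all genes tested did so. At 0 h that held for 1 member, Utp18, where 2.95% did so, and 0 members lay wholly below WT at either time, where 3.6% of all genes tested did at 2 h and 2.9% at 0 h.

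Nor did any member pass the test for a difference in response. The difference of the log2 responses, KO minus WT, was called for 0 of 50 members by edgeR (0% of all genes tested), and 0 had an unadjusted p under 0.05, where 0.212% of all genes tested were higher and 0.114% lower. DESeq2 called 0 as well. The differences ran from -0.15 for Rrn3 to 0.44 for Nhp2, with SE of 0.19 to 0.50 and a median SE of 0.28. Differences of the size of these errors were therefore not detectable with 3 animals per genotype. Nhp2 had the largest at 2 h too, with a mean of 156 ± 24.97 CPM in KO and 116 ± 28.7 CPM in WT (SD, n = 3 each), and a log2 difference of 0.43 ± 0.21 (edgeR adjusted p = 0.887). At 0 h Nhp2 averaged 33.8 ± 3.70 CPM in KO and 34.2 ± 7.27 CPM in WT. Npm1 averaged 797 ± 24.9 CPM in KO and 612 ± 113 CPM in WT at 2 h, a log2 difference of 0.38 ± 0.16 (edgeR adjusted p = 0.887). Without WT 2 h replicate 1 that difference was 0.23 for Npm1 and 0.24 for Nhp2, and the difference of the Nhp2 responses was 0.25. Over all alternatives the log2 difference at 2 h ran from 0.21 to 0.46 for Npm1 and from 0.18 to 0.58 for Nhp2, and the difference of the Nhp2 responses from 0.19 to 0.59. Taf1d averaged 124 ± 25.5 CPM in KO and 95.8 ± 7.11 CPM in WT at 2 h, where KO replicate 1 was the highest library; its log2 difference of 0.37 was 0.19 without that library.

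**Figure D5:**
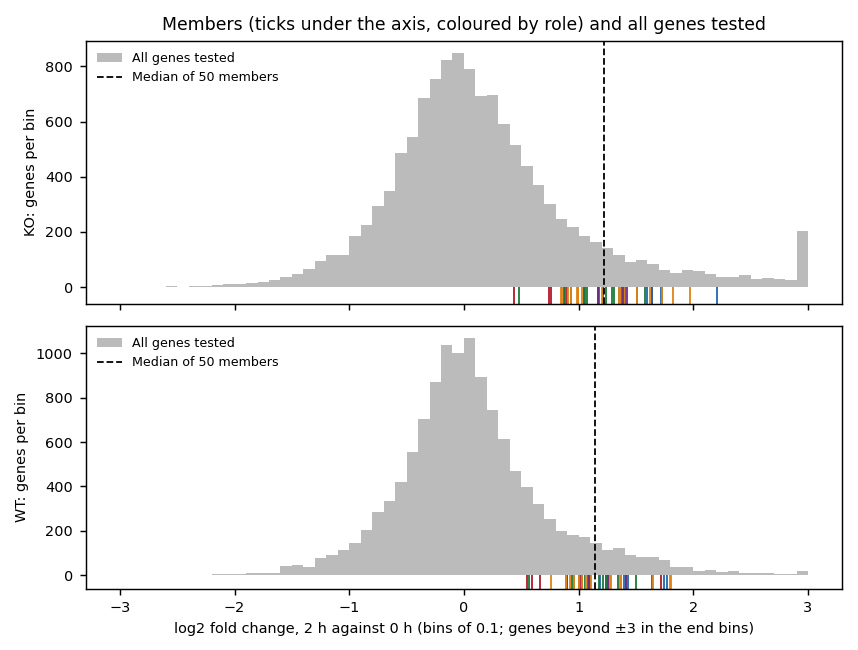
Histograms of the log2 fold change at 2 h against 0 h for all 12242 genes tested in KO (top) and WT (bottom), with the 50 members as ticks under each axis coloured by role as in the plot of coding length. The dashed lines mark the members' medians, 1.22 in KO and 1.14 in WT, and every tick lies to the right of 0.

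The other genes of the pathway moved mostly the same way, with a smaller median. Lists of 131 further genes, all tested, gave 84 higher and 1 lower in KO (beside 14.1% of all genes tested called higher and 13% lower) and 77 higher and 2 lower in WT (beside 10.7% higher and 9.06% lower). Their median log2 fold change was 0.69 in KO and 0.65 in WT. Of 16 other Pol I and SL1 genes, 8 were higher in KO, and 7 were higher and 1 lower in WT. Cd3eap, the Pol I subunit that pairs with Polr1e, averaged 57.2 ± 11.9 CPM at 2 h and 14.4 ± 1.05 CPM at 0 h in KO, and 44.8 ± 10.7 CPM at 2 h and 14.1 ± 1.56 CPM at 0 h in WT (SD, n = 3 each). Its log2 fold change was 1.98 ± 0.20 in KO (edgeR adjusted p = 9.76e-05) and 1.67 ± 0.20 in WT (adjusted p = 0.000328). Polr1c, shared by Pol I and Pol III, had 0.95 in KO and 0.84 in WT, and Polr2h, shared by all 3 polymerases, had 1.43 in KO and 1.13 in WT. Polr2e, also shared by all 3, went the other way, with log2 fold changes of -0.32 in KO (edgeR adjusted p = 0.103) and -0.45 in WT (adjusted p = 0.0358).

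Of 14 other snoRNP proteins and assembly factors, 12 were higher in KO and 10 in WT, and 0 lower. Znhit6 and Ruvbl1, which help to assemble box C/D particles, had log2 fold changes of 1.43 in KO and 1.40 in WT for Znhit6, and 1.12 in KO and 1.04 in WT for Ruvbl1. Shq1, a chaperone of dyskerin, had 1.29 in KO and 1.18 in WT. Of 41 other small subunit genes, 29 were higher and 1 lower in KO, and 26 were higher and 1 lower in WT. Pno1, the partner of Nob1, had 1.34 in KO and 1.21 in WT. Esf1 had 1.06 in KO and 0.85 in WT and Krr1 had 0.88 in KO and 0.78 in WT. The gene called lower in both genotypes was Riok3, a kinase of late small subunit maturation, with -0.40 ± 0.09 in KO (edgeR adjusted p = 0.00783) and -0.31 ± 0.09 in WT (adjusted p = 0.0301). Of 42 other large subunit genes, 26 were higher in KO and 25 in WT, and 0 lower. Rpf2, the partner of Rrs1, had 1.52 in KO and 1.31 in WT, Grwd1 had 1.55 in KO and 1.60 in WT and Rsl1d1 had 1.22 in KO and 1.15 in WT. Of 18 genes of the RNA exosome and ribosomal RNA nucleases, 9 were higher in KO and 9 in WT, and 0 lower, with medians of 0.41 in KO and 0.36 in WT. Exosc2, Exosc1 and Exosc6, all parts of the exosome core, had 1.03 in KO and 0.84 in WT for Exosc2, 0.87 in KO and 0.81 in WT for Exosc1, and 1.24 in KO and 0.98 in WT for Exosc6.

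Myc, whose product is known to activate this pathway, rose more than any member. It stood at 706, 1258 and 632 CPM at 2 h and 110.1, 125 and 73.9 CPM at 0 h in KO and at 738, 1273 and 799 CPM at 2 h and 105, 123 and 70.1 CPM at 0 h in WT, and every 2 h library was far above every 0 h library. The log2 fold change of Myc was 3.07 ± 0.35 in KO (edgeR adjusted p = 0.000163) and 3.23 ± 0.35 in WT (adjusted p = 0.00021). In both genotypes its 2 h level was highest in replicate 2.

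Promoter sequences were read from RefSeq's table (GRCm38.p6, 250 bases before to 50 after the start it gives, which for genes such as Wdr43 and Gar1 is not the outer end of the gene) for 44 of the 50 members; Gnl2, Fbl, Npm1, Rrp12, Rrs1 and Bop1 were not matched. CACGTG, the palindromic E-box that MYC is known to bind, was found in 8 of 44 members (18.2%), in 12% of the 9125 tested genes with a promoter, in 22.4% of 964 other genes called higher in WT, and in 8.09% of all 27025 genes in the promoter table. A gene with several promoters counted once, if any of them held the element. The related CATGTG, searched on both strands, was in 11 of 44 members (25%), 10.4% of tested genes, 12.3% of the other genes higher in WT and 15.9% of all genes in the promoter table. CCGGAAGT, an element known to be bound by ETS-family factors and also searched on both strands, was in 13 of 44 members (29.5%), 9.45% of tested genes, 9.96% of the other genes higher in WT and 4.31% of all genes in the promoter table. CACGTG and CATGTG differ by 1 letter, so a site counts for only one of them, and CCGGAAGT cannot overlap either. Median GC content was 59.5% in the members' windows and 60.7% in those of tested genes. The motifs were picked with the expression results known, so the shares are a description. The median WT log2 fold change was 1.15 for the 8 members with CACGTG and 1.14 for the 36 without, and 1.11 for the 13 with CCGGAAGT and 1.24 for the 31 without. The windows from 70 bases before to 50 after the start are printed for the 4 CACGTG members with the largest rise in WT and for the 3 further CCGGAAGT members with the largest rise in WT, with both elements in capitals.
Nop2 (chr6:125131813-125131932, plus strand): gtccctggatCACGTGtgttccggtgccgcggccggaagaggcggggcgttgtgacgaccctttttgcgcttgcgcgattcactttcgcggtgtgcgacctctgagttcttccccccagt
Tsr1 (chr11:74898010-74898129, plus strand): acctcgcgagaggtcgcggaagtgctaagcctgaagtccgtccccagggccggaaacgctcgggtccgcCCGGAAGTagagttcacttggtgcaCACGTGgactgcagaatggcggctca
Wdr43 (chr17:71616145-71616264, plus strand): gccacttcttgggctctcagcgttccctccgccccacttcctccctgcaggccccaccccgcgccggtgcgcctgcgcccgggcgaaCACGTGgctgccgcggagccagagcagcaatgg
Ltv1 (chr10:13193088-13193207, minus strand): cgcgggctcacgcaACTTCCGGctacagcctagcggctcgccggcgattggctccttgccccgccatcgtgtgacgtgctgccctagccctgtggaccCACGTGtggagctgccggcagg
Nhp2 (chr11:51619703-51619822, plus strand): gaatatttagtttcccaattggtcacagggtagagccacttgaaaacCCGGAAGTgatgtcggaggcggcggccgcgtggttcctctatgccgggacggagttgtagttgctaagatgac
Ppan (chr9:20888105-20888224, plus strand): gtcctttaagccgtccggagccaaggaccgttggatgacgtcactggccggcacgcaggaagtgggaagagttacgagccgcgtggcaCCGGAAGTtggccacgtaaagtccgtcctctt
Gar1 (chr3:129831347-129831466, minus strand): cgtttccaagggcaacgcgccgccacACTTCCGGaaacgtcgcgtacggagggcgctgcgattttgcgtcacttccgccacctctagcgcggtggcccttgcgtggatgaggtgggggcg

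In these windows the first base of CACGTG, counted from the start used by the promoter table without a position 0, was at -60 in Nop2, 25 in Tsr1, 18 in Wdr43 and 29 in Ltv1. CCGGAAGT, in either orientation, started at -1 in Tsr1, -56 in Ltv1, -23 in Nhp2, 19 in Ppan and -44 in Gar1. Tsr1 and Ltv1 thus carried both elements close to the start, and the rises of both are given above with the small subunit genes. Rrn3, which did not pass the test, also carried both, with CACGTG at -215 and -48 and CCGGAAGT at -6. No match says only that these letters are not in this window.

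Some members also have genes of small nucleolar RNAs within them. By the GENCODE annotation of the same build, 9 of the 50 (18%) had at least 1 snoRNA gene within them on the same strand, beside 1.83% of the 11012 protein-coding genes tested. The hosts were Taf1d, Nop56, Nop58, Dkc1, Wdr43, Tsr1, Gnl3, Ppan and Ncl. Taf1d (chr9:15305953-15316997, mm10) held 8, Nop56 (chr2:130274367-130279313) held 5 including Snord57 and Snord110, Nop58 (chr1:59684961-59711510) held Snord11 and Snord70 among 4, and Ncl (chr1:86344719-86359455) held Snord82 and Snora75 among 3. The median WT log2 fold change was 1.40 for the 9 hosts and 1.09 for the other members. Over the 202 hosts among all protein-coding genes tested it was 0.096. Host transcripts were counted after poly(A) selection, so the snoRNAs themselves were not measured. In the annotation, 17 members share exon bases with a gene on the other strand, among them Nhp2 with Rmnd5b, Heatr1 with Lgals8 and Gnl3 with Pbrm1. The sources used here do not give whether the counting used strand, so reads of such pairs cannot be told apart and those levels are uncertain.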

How the data were processed

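Splenic FO B cells were profiled by poly(A) RNA-seq in 12 libraries, and the deposited files hold the authors' whole-number counts per gene symbol. Reads were aligned with STAR to mm10, per the submitters' processing notes; the sources used here do not give the counting tool, annotation or strand setting. The raw counts were fitted with edgeR 4.0.16 (R 4.3.3): filterByExpr on the 4 groups kept 12242 genes, library sizes were scaled by TMM, and the quasi-likelihood test with 1 mean per group was two-sided with Benjamini-Hochberg adjustment over all genes tested. Calls were made at an adjusted p under 0.05. Ratios within an animal used CPM + 1. Library totals are given in the report; their counting error is small beside the spread between animals, and the lowest member count was 122. The fit was tested on simulated counts with known changes.

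Library names pair the 0 h and 2 h libraries of an animal. Deviations from the group means over the genes tested correlated at -0.35 to 0.55 within the 6 animals and at -0.70 to 0.45 in the 12 pairs of different animals of a genotype. Replicates of a group differed by 13.1 to 809 times the variance of counting, so none was counted as a duplicate. Gene positions and promoters come from RefSeq's tables (GRCm38.p6, the assembly behind mm10), coding lengths and snoRNA genes from GENCODE M21. Values in every library are given for the 3 members of each role with the smallest p in WT and for members not called in a genotype; Heatr1 and Utp20 were added after their values were seen. The members, the lists of other pathway genes and markers, and the tests were chosen with earlier results of these data known. Alternatives were RLE scaling, Rn45s left out, other filters, batch or animal as a block, only the groups compared, DESeq2 1.42.0, and libraries left out.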

Additional observations from a re-analysis of the deposited data

How the results depend on the processing

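The counts of members called and the members' medians were computed under 23 alternatives for the responses. Shares of all genes called were taken for the main edgeR fit only, so the counts in this section have no background beside them. No direction changed in any of 1150 member values in KO or 1150 in WT. Leaving out 1 library at a time, 45 to 50 members were called higher in KO and 39 to 50 in WT, 0 lower, with medians of 1.04 to 1.37 in KO and 1.0 to 1.28 in WT. The lowest WT count came without WT 2 h replicate 2, where Taf1d, Nop56, Utp20, Heatr1, Rrp12, Gnl2, Wdr74 and Bop1 lost their call, with adjusted p of 0.0508 (Nop56) to 0.150 (Heatr1). With the animal as replicate block, 46 members were called higher in KO and 47 in WT; with the batch as replicate block, 48 in KO and 49 in WT. Apart from Heatr1 in both genotypes and Polr1a, the pairing by animal changed no call. DESeq2 called 48 in KO and 50 in WT. Over all alternatives, 3 members lost a call somewhere in KO (Polr1a, Utp20 and Heatr1) and 8 in WT, and 2 gained one in KO and 3 in WT (Polr1a, Rrn3 and Ddx10). The snoRNP median exceeded the Pol I median by 0.71 to 0.82 in KO and 0.61 to 0.69 in WT; this difference was added after the data were seen. KO against WT gave 0 members at each time, and 0 for the difference of responses, in every alternative that could be fitted; the animal block was not used for KO against WT at one time.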
